A study of Mus musculus with 6 samples.

Results

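The integrated stress response and the unfolded protein response are represented here by 35 genes, chosen by name among the 54532 genes measured, and each was found in the table. Ddit3 had 2 rows, the gene itself and a 105-base entry inside it that held 0 counts in all 6 libraries, so values for Ddit3 are those of the gene. All 35 members had enough counts to be tested among 16078 genes. P19 cells come from a mouse embryonal carcinoma and turn into neural cells under retinoic acid. RNA was sequenced from 3 samples transfected with an siRNA against Baf45d (Dpf2 in the table, which encodes a member of the BAF complex, a remodeller of chromatin) and from 3 samples transfected with a negative control (NC) siRNA. Both groups were transfected with a lipid reagent and then had 5 days of all-trans retinoic acid, and no sample without transfection or without retinoic acid was analysed here. Stress response transcripts were compared between the siRNAs and among the libraries.

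In the integrated stress response, kinases such as PERK phosphorylate the translation factor eIF2, which lowers protein synthesis in general while the mRNA of the transcription factor ATF4 is translated better. ATF4, with C/EBP partners, then raises genes for amino acid synthesis, amino acid uptake and aminoacyl-tRNA synthetases, and further factors such as CHOP and ATF3. The unfolded protein response of the endoplasmic reticulum (ER) uses PERK together with IRE1, which splices the Xbp1 mRNA, and ATF6, which is cut to release a transcription factor; these factors raise chaperones and folding enzymes. Much of this regulation acts on translation, splicing and cleavage, which a count of transcripts per gene does not show.

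Counts totalled 17127876 to 18499169 in the Baf45d libraries and 17767104 to 21224822 in the NC libraries. Values per library are listed in the order of replicates 1, 2 and 3. Levels within a gene are given as CPM, counts scaled to library size with TMM factors, and levels between genes as the deposited FPKM, which is per length. Dpf2, the target of the siRNA, was at 148, 141 and 147 CPM with Baf45d siRNA, against 156, 154 and 158 CPM with NC siRNA. The Baf45d libraries lay below the NC libraries, but the log2 fold change of -0.10 (SE 0.07) did not pass the edgeR test (adjusted p = 0.996), so the level of its transcript is a weak check of the labels. The neural markers Tubb3 and Sox2 were present in all 6 libraries (Tubb3 at 305, 224 and 176 CPM with Baf45d siRNA, against 225, 200.3 and 200.2 CPM with NC siRNA). Not all neural markers were abundant, as Fabp7 averaged 1.43 CPM with Baf45d siRNA and 0.831 CPM with NC siRNA. The 6 neural progenitor markers summed to 802, 838 and 834 CPM in the Baf45d libraries and 762, 717 and 836 CPM in the NC libraries. The 6 mesoderm markers summed to 130, 140 and 142 CPM in the Baf45d libraries and 170, 167 and 141 CPM in the NC libraries. Of 5 pluripotency markers 1, Zfp42, had 0 counts throughout, and the 5 summed to 11.1 to 13.6 CPM in the Baf45d libraries and 8.97 to 13.3 CPM in the NC libraries. Of 5 endoderm markers 1, Afp, had 0 counts throughout, and the 5, mostly Gata6, summed to 55.7 to 69.2 CPM in the Baf45d libraries and 70.7 to 79.5 CPM in the NC libraries. Summed CPM of 6 neuron markers was 1045, 938 and 651 in the Baf45d libraries and 796, 719.6 and 719 in the NC libraries. That of 6 mesenchymal matrix markers was 1355, 1275 and 1405 in the Baf45d libraries and 1603, 1570 and 1419 in the NC libraries. Baf45d replicate 3 stood apart in Gapdh, at 23.9, 14.0 and 236 CPM with Baf45d siRNA, against 21.5, 31.2 and 27.1 CPM with NC siRNA. The treatment text also names a gapdh siRNA, and none of the 6 libraries is labelled with it. Baf45d replicate 2 had the highest mitochondrial share of counts, 2.54% against 1.52% to 1.85% in the other 5 libraries, and the fewest genes detected, 23123 against 23492 to 24230. Its most abundant 100 genes took 14.8% of counts, against 13.4% to 13.8% in the others. In bulk RNA, fewer cells of a type and less RNA per cell cannot be told apart.

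Promoters of members were examined for short elements tied to these responses. RefSeq (GRCm38.p6) gave a window of 250 bases before to 50 bases after the start for 31 of the 35 members. Both strands were searched for TGATGNAA, the core of the composite element bound by ATF4 with C/EBP partners, and for the ER stress element, which is CCAAT followed after 9 bases by CCACG. The composite element was found for 8 of the 31 members, or 25.8%, against 2.65% of the 11260 tested genes with a window. These were Asns, Atf3, Chac1, Herpud1, Nupr1, Slc7a11, Trib3 and Vldlr. The ER stress element was found for 5 of the 31 members, or 16.1%, against 0.151% of those tested genes, and all 5 (Calr, Creld2, Hsp90b1, Hspa5 and Pdia6) are ER chaperones or folding factors. The elements TGACGTGG and TGACGTCA (TGACGTCA reads the same on both strands) matched 0 and 1 of the 31 members, the 1 being Ppp1r15a, against 1.05% and 3.60% of the tested genes. Members were chosen by name as genes of these responses, so their shares are not independent of that choice and are no test. A match in this window is a description of its letters only.

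Windows are printed for Atf3, Chac1 and Slc7a11, which hold the composite element and differed over 2-fold among libraries, and for Hspa5 as an ER gene that varied little. Capitals mark the composite element in Atf3, Chac1 and Slc7a11 and the CCAAT and CCACG of the ER stress element in Hspa5, each read 5′ to 3′ on the gene's strand, where TTGCATCA is the composite element on the other strand. The windows lie on the minus strand at chr1:191183284-191183583 for Atf3, the plus strand at chr2:119350992-119351291 for Chac1, the minus strand at chr3:50443564-50443863 for Slc7a11 and the plus strand at chr2:34771840-34772139 for Hspa5.
Atf3: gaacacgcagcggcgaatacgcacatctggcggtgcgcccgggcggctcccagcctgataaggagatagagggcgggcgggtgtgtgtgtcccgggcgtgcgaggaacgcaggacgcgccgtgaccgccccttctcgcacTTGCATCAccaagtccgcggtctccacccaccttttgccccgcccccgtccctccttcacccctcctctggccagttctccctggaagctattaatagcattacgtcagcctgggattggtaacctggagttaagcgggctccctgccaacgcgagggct
Chac1: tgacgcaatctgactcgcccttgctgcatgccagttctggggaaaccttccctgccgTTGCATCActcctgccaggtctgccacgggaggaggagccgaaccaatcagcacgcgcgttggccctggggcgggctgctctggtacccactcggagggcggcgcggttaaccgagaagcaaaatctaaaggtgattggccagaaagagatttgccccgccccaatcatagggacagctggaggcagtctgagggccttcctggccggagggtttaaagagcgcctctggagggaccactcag
Slc7a11: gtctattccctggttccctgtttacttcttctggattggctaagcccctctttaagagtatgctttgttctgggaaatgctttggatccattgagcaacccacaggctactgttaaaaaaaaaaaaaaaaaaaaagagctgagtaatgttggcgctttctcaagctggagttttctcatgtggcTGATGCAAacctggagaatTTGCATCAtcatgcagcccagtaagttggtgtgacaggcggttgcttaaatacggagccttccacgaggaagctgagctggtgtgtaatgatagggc
Hspa5: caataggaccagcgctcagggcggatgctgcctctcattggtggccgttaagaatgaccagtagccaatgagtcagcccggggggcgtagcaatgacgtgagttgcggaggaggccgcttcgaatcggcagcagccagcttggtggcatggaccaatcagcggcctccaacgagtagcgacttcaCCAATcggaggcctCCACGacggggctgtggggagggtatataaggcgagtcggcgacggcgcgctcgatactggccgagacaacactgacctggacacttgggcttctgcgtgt

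The ER stress elements of the other folding genes are shown for comparison with that of Hspa5, with capitals for the searched ends, and begin at bases -212 to -98 from the RefSeq start, counted on the gene's strand. Those of Pdia6 and the first of Hsp90b1 are on the gene's strand, and those of Calr, Creld2 and the second of Hsp90b1 are on the other strand and printed as read there.
Calr: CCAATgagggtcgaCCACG
Pdia6: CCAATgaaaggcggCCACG
Creld2: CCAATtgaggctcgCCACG
Hsp90b1, first: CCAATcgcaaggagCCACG
Hsp90b1, second: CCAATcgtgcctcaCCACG

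The 3 most abundant members were ER chaperones, while the largest ratios of highest to lowest library were those of the low-abundance genes Cebpb (3.96), Atf3 (3.59), Nupr1 (2.73), Chac1 (2.72) and Trib3 (2.54). Among genes averaging 5 CPM or more, which leaves out Nupr1, ratios over 2 were found for 6 of 34 members, or 17.6%, against 3.19% of 11712 genes. Calr, which encodes the calcium-binding chaperone calreticulin, averaged 240.1 ± 24.1 FPKM with Baf45d siRNA and 245 ± 2.81 FPKM with NC siRNA (SD, n = 3 each, as for all means here). Hspa5, the ER chaperone BiP, averaged 143 ± 14.3 FPKM with Baf45d siRNA and 146 ± 6.51 FPKM with NC siRNA, and Hsp90b1, the ER chaperone GRP94, averaged 125 ± 15.0 FPKM with Baf45d siRNA and 119.8 ± 7.91 FPKM with NC siRNA. Phgdh, the first enzyme of serine synthesis, was next at 100.2 ± 18.7 FPKM with Baf45d siRNA and 107 ± 11.1 FPKM with NC siRNA, and Atf4 followed at 69.6 ± 20.1 FPKM with Baf45d siRNA and 72.1 ± 14.8 FPKM with NC siRNA. Calr lay above every other member in each library. Phgdh lay above Atf4 in each library, although their ranges over the 6 libraries overlapped. The order of Hspa5 and Hsp90b1, and that of Hsp90b1 and Phgdh, differed between libraries. The lowest members were Nupr1, at 0.772 ± 0.364 FPKM with Baf45d siRNA and 1.27 ± 0.127 FPKM with NC siRNA, and Slc7a11, at 1.28 ± 0.368 FPKM with Baf45d siRNA and 0.962 ± 0.123 FPKM with NC siRNA.

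**Figure D1:**
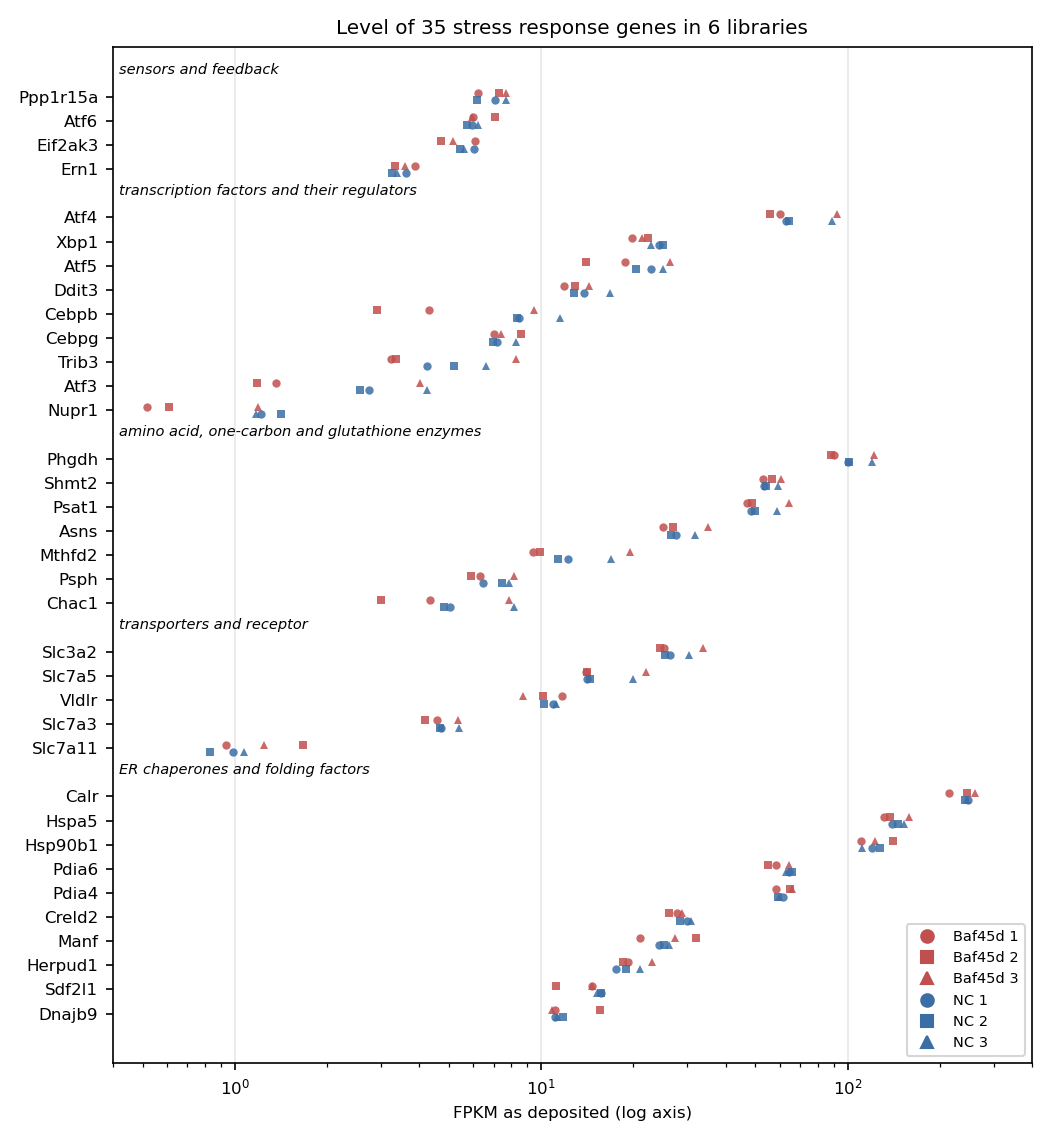
FPKM of the 35 members on a log axis, one row per gene in blocks by role, with Baf45d libraries in red above NC libraries in blue and the marker shape giving the replicate number. Calr was highest, at 214 to 261 FPKM with Baf45d siRNA and 241 to 246 FPKM with NC siRNA, and the triangles of replicate 3 lie to the right of the other shapes for all 7 enzymes.

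None of the 35 members passed an adjusted p of 0.05 in edgeR's quasi-likelihood test of Baf45d over NC siRNA, where 0% of the 16078 genes did. DESeq2 and limma-voom also called 0 members. Adjusted p ran from 0.996 to 0.997 in edgeR, and 1 of 35 members, Nupr1, had an unadjusted p under 0.05 and was lower with Baf45d siRNA, against 2.85% of all genes tested (1.21% higher and 1.64% lower). The count at that level was 1 in DESeq2, namely Slc7a11, against 1.32% of the 29810 genes in that fit. It was 2 in limma-voom, namely Cebpb and Nupr1, against 2.99% of all genes. Of the 35 members, 20 had a log2 fold change below 0, against 48.1% of all genes, and the median was -0.05, against 0.01 over all genes. That median was above 0 without NC replicate 3, at 0.040, and without Baf45d replicate 1, at 0.044. The Baf45d libraries lay below all NC libraries for 2 members, Xbp1 and Sdf2l1, against 4.3% of all genes. They lay above them for 0 members, against 3.74% of all genes (8.04% in either direction). With the replicate number as a block, 0 members passed, where 0.00622% of all genes did. In that fit 5 members (Atf3, Atf5, Cebpb, Nupr1 and Xbp1) had an unadjusted p under 0.05, against 7.75% of all genes. Each of the 5 was lower with Baf45d siRNA. SEs and intervals given below are from the fit without this block unless another fit is named, and the block gave each member a smaller SE.

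**Figure D2:**
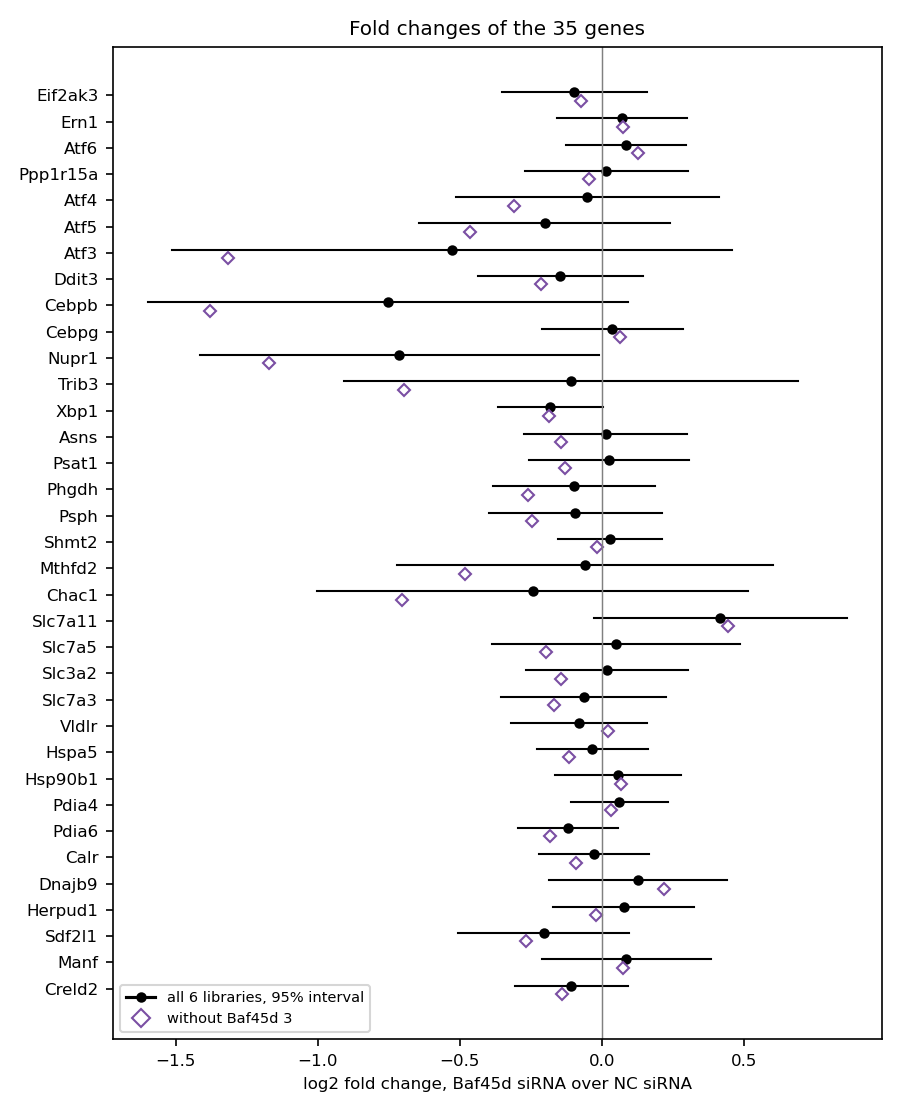
Log2 fold changes of Baf45d over NC siRNA for the 35 members, with 95% intervals from the edgeR fit of all 6 libraries (black) and the values without Baf45d replicate 3 (open diamonds). The interval of Nupr1 alone lies below 0, and the diamonds of Cebpb, Atf3 and Nupr1 lie at -1.38, -1.32 and -1.17.

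Neither the 3 sensors nor the feedback phosphatase subunit separated the groups. Eif2ak3, which encodes the eIF2 kinase PERK, was at 36.8, 28.5 and 31.1 CPM with Baf45d siRNA, against 36.6, 32.8 and 33.8 CPM with NC siRNA. Between the groups the log2 fold change was -0.10 (SE 0.11, 95% interval -0.35 to 0.16). Ern1, which encodes IRE1, was at 31.9, 27.3 and 29.3 CPM with Baf45d siRNA, against 29.8, 26.8 and 27.8 CPM with NC siRNA. Its log2 fold change came to 0.07 (SE 0.10, 95% interval -0.16 to 0.30). Both genes were highest in Baf45d replicate 1. Atf6 was at 55.7, 65.5 and 55.1 CPM with Baf45d siRNA, against 55.4, 53.3 and 57.6 CPM with NC siRNA, where only Baf45d replicate 2 exceeded the others. The log2 fold change was 0.08 (SE 0.09, 95% interval -0.13 to 0.30). Ppp1r15a, which encodes GADD34, the subunit that directs dephosphorylation of eIF2, was at 18.4, 21.5 and 22.6 CPM with Baf45d siRNA, against 20.9, 18.2 and 22.7 CPM with NC siRNA. Its log2 fold change of 0.02 (SE 0.13, 95% interval -0.27 to 0.30) was smaller than its SE. Over these 4 genes the 95% intervals of the log2 fold change ran from -0.35 to 0.30.

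Of the 5 members with the widest spread over libraries, 4 were transcription factors or their regulators, namely Cebpb, Atf3, Nupr1 and Trib3. Atf4, the central factor (chromosome 15, 80255184 to 80257541, plus strand, GRCm38), was at 142, 133 and 219 CPM with Baf45d siRNA, against 149, 152 and 211 CPM with NC siRNA. The libraries numbered 3 were the highest of their group, and the groups overlapped. Its log2 fold change was -0.05 (SE 0.20, 95% interval -0.51 to 0.41). Atf5, a relative of ATF4 that is likewise regulated at translation, was at 37.8, 28.1 and 52.6 CPM with Baf45d siRNA, against 45.6, 40.8 and 50.1 CPM with NC siRNA. Between the groups the log2 fold change was -0.20 (SE 0.20, 95% interval -0.64 to 0.24). The whole span of Atf5, introns included, overlaps that of Nup62 on the opposite strand by 571 bases. Nup62 was at 125, 112 and 125 CPM with Baf45d siRNA, against 119.5, 123 and 129.7 CPM with NC siRNA. Atf5 transcripts share 2.76% of their 31-base stretches with other genes, the most with Il4i1. Ddit3, which encodes CHOP, was at 20.5, 22.2 and 24.5 CPM with Baf45d siRNA, against 23.7, 22.0 and 28.8 CPM with NC siRNA. This gave a log2 fold change of -0.15 (SE 0.13, 95% interval -0.44 to 0.14).

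Atf3, a stress-induced repressor and activator (chromosome 1, 191170296 to 191218039, minus strand), was at 2.95, 2.55 and 8.71 CPM with Baf45d siRNA, against 5.93, 5.54 and 9.18 CPM with NC siRNA. Baf45d replicates 1 and 2 lay at roughly the same low level and replicate 3 lay near NC replicate 3, so the groups overlapped and the log2 fold change was -0.53 (SE 0.44, 95% interval -1.51 to 0.46). Cebpb, a C/EBP partner of ATF4 (chromosome 2, 167688915 to 167690418, plus strand), was at 6.52, 4.40 and 14.3 CPM with Baf45d siRNA, against 12.8, 12.6 and 17.4 CPM with NC siRNA. Again Baf45d replicates 1 and 2 were the 2 lowest libraries, while Baf45d replicate 3 exceeded NC replicates 1 and 2. For Baf45d over NC siRNA the log2 fold change was -0.75 (SE 0.37, 95% interval -1.60 to 0.09). Cebpb overlaps Tmem189 on the opposite strand by 908 bases, and the use of strand in counting is not given in the sources used here, so part of its count is uncertain. Tmem189 itself was at 27.9, 31.4 and 36.4 CPM with Baf45d siRNA, against 28.0, 32.4 and 35.3 CPM with NC siRNA, a log2 fold change of -0.00055 (SE 0.13).

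Nupr1, a small stress-induced chromatin protein (chromosome 7, 126623249 to 126630861, minus strand), was at 1.30, 1.54 and 2.99 CPM with Baf45d siRNA, against 3.08, 3.57 and 2.97 CPM with NC siRNA, on 23 to 55 reads in the Baf45d libraries and 53 to 76 reads in the NC libraries. Its highest Baf45d library just exceeded its lowest NC library, the log2 fold change was -0.71 (SE 0.31, 95% interval -1.41 to -0.01), and the adjusted p in edgeR was 0.996. Trib3, a pseudokinase that binds ATF4, was at 6.92, 7.19 and 17.6 CPM with Baf45d siRNA, against 9.07, 11.1 and 14.2 CPM with NC siRNA, with the highest and the lowest of the 6 libraries both in the Baf45d group and a log2 fold change of -0.11 (SE 0.35, 95% interval -0.91 to 0.69). Xbp1, the factor made active by IRE1 splicing (chromosome 11, 5520659 to 5525893, plus strand), was at 64.9, 73.0 and 69.6 CPM with Baf45d siRNA, against 79.2, 81.4 and 74.6 CPM with NC siRNA. Each Baf45d library was below each NC library by a small margin. Its log2 fold change came to -0.18 (SE 0.08, 95% interval -0.37 to 0.00), with an adjusted p of 0.996 in edgeR. Cebpg, another C/EBP partner, was at 39.7, 48.7 and 41.6 CPM with Baf45d siRNA, against 40.4, 39.3 and 46.9 CPM with NC siRNA, with no separation.

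**Figure D3:**
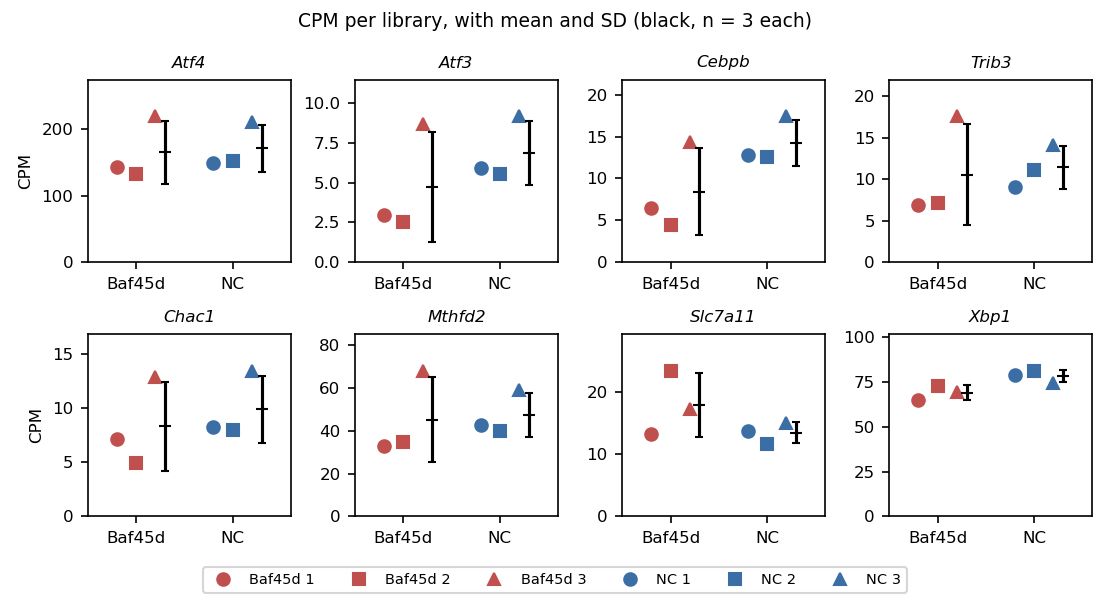
CPM of 8 members in each library, Baf45d left of NC in each panel, with replicate numbers as shapes and the mean and SD (n = 3 each) in black. For Atf3, Cebpb, Trib3, Chac1 and Mthfd2 the circle and square of the Baf45d group lie below all NC libraries and the triangle does not, at 8.71 CPM for Atf3 against 2.95 and 2.55 CPM in the other Baf45d libraries.

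The amino acid, one-carbon and glutathione enzymes were all 7 highest in the libraries numbered 3, in both groups. Asns, asparagine synthetase, was at 68.5, 73.9 and 95.7 CPM with Baf45d siRNA, against 75.6, 73.0 and 87.4 CPM with NC siRNA. Serine synthesis uses Phgdh, Psat1 and Psph in turn. Phgdh was at 226, 221 and 303 CPM with Baf45d siRNA, against 250.1, 253 and 299.5 CPM with NC siRNA. Psat1 was at 201, 208 and 275 CPM with Baf45d siRNA, against 208, 213 and 251 CPM with NC siRNA. Psph was at 27.6, 25.7 and 35.5 CPM with Baf45d siRNA, against 28.1, 32.4 and 34.2 CPM with NC siRNA. In each of the 3 the libraries numbered 3 were the 2 highest, and the log2 fold changes were -0.10 (SE 0.13), 0.03 (SE 0.13) and -0.09 (SE 0.14). Phgdh shares 56.3% of its 31-base stretches with other genes, and 44.8% with the pseudogene Gm7901. Gm7901 held 638 counts over the 6 libraries against 28490 for Phgdh. It was at 4.25, 4.93 and 11.4 CPM with Baf45d siRNA, against 3.36, 6.24 and 4.31 CPM with NC siRNA. Psph overlaps Cct6a, a far more abundant gene at 312, 394 and 379 CPM with Baf45d siRNA, against 316, 331 and 366 CPM with NC siRNA, by 452 bases on the opposite strand.

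Mthfd2, a mitochondrial folate enzyme, was at 33.0, 34.7 and 68.1 CPM with Baf45d siRNA, against 42.9, 39.8 and 59.0 CPM with NC siRNA. Its highest library, Baf45d replicate 3, was 2.07 times its lowest, Baf45d replicate 1. Its log2 fold change was -0.06 (SE 0.29, 95% interval -0.72 to 0.60). Shmt2, which moves a carbon unit from serine to folate in mitochondria, was at 165, 178 and 188 CPM with Baf45d siRNA, against 166, 169 and 186 CPM with NC siRNA. The log2 fold change was 0.03 (SE 0.08, 95% interval -0.15 to 0.21), and its spread over libraries was the smallest of the 7 enzymes. Chac1, which degrades glutathione and is a target of ATF4 and CHOP, was at 7.15, 4.93 and 12.8 CPM with Baf45d siRNA, against 8.29, 7.93 and 13.4 CPM with NC siRNA. Its lowest and its highest value were in Baf45d replicate 2 and NC replicate 3. Its log2 fold change was -0.24 (SE 0.34).

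Of the 5 transporter and receptor genes, 3 were highest in the libraries numbered 3, like the enzymes. Slc7a5 and Slc3a2 encode the subunits of the large neutral amino acid transporter LAT1. Slc7a5 was at 52.4, 52.5 and 81.8 CPM with Baf45d siRNA, against 52.5, 53.7 and 74.2 CPM with NC siRNA. Slc3a2 was at 89.3, 86.7 and 119 CPM with Baf45d siRNA, against 93.3, 90.2 and 108 CPM with NC siRNA. Slc7a3, a cationic amino acid transporter, was at 17.4, 15.9 and 20.4 CPM with Baf45d siRNA, against 18.0, 17.7 and 20.5 CPM with NC siRNA. None separated the groups, with log2 fold changes in this order of 0.05 (SE 0.19), 0.02 (SE 0.13) and -0.06 (SE 0.13). Slc7a11, the cystine transporter xCT (chromosome 3, 49892526 to 50443614, minus strand), whose window holds 2 composite elements, was at 13.2, 23.4 and 17.3 CPM with Baf45d siRNA, against 13.8, 11.6 and 15.0 CPM with NC siRNA. Baf45d replicate 2 was the highest of the 6 and Baf45d replicate 1 lay within the NC range, so the log2 fold change of 0.42 (SE 0.20, 95% interval -0.03 to 0.86), the highest of the 35 members, did not pass (adjusted p = 0.996 in edgeR). It was 0.19 without Baf45d replicate 2 and 0.60 without Baf45d replicate 1. Vldlr, a lipoprotein receptor that is raised under ER stress, was at 119, 103 and 88.0 CPM with Baf45d siRNA, against 111, 104 and 113 CPM with NC siRNA, lowest in Baf45d replicate 3.

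Among the ER chaperones and folding factors, ratios of highest to lowest library ran from 1.12 for Pdia4 to 1.53 for Manf. Hspa5 (chromosome 2, 34771970 to 34777547, plus strand) was at 559, 587 and 673 CPM with Baf45d siRNA, against 592, 621 and 648 CPM with NC siRNA. Between the groups the log2 fold change was -0.03 (SE 0.09, 95% interval -0.23 to 0.16). Hsp90b1 was at 448, 569 and 497 CPM with Baf45d siRNA, against 488, 516 and 452 CPM with NC siRNA. This gave a log2 fold change of 0.06 (SE 0.10, 95% interval -0.16 to 0.28). Calr was at 619.6, 711 and 753 CPM with Baf45d siRNA, against 713, 698 and 712 CPM with NC siRNA. For Baf45d over NC siRNA the log2 fold change was -0.03 (SE 0.09, 95% interval -0.22 to 0.17). For these chaperones the intervals run from -0.23 to 0.28, so a 2-fold change in either direction would lie outside them. The disulfide isomerases Pdia4 and Pdia6 also overlapped between groups. Pdia4 was at 141, 157 and 158 CPM with Baf45d siRNA, against 149, 143 and 145 CPM with NC siRNA. Pdia6 was at 221, 207 and 242 CPM with Baf45d siRNA, against 242, 248 and 237 CPM with NC siRNA. Their log2 fold changes were 0.06 (SE 0.08) and -0.12 (SE 0.08).

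Sdf2l1, a cofactor in the BiP chaperone cycle (chromosome 16, 17130138 to 17132383, minus strand), was at 16.3, 12.5 and 16.3 CPM with Baf45d siRNA, against 17.5, 17.5 and 17.0 CPM with NC siRNA, and its Baf45d libraries lay below its NC libraries with a log2 fold change of -0.20 (SE 0.14, 95% interval -0.51 to 0.10). Creld2, a secreted ER stress protein with isomerase-like features, was at 38.2, 35.9 and 39.6 CPM with Baf45d siRNA, against 41.1, 38.9 and 42.4 CPM with NC siRNA. Its groups overlapped. Manf, a secreted ER protein, and Dnajb9, a BiP co-chaperone, were both highest in Baf45d replicate 2. Manf was at 74.3, 113 and 96.5 CPM with Baf45d siRNA, against 86.1, 88.8 and 92.7 CPM with NC siRNA. Dnajb9 was at 28.4, 39.8 and 27.7 CPM with Baf45d siRNA, against 28.5, 30.3 and 28.9 CPM with NC siRNA. The whole span of Manf, introns included, overlaps that of Rbm15b on the same strand by 6511 bases. It overlaps that of Dcaf1 on the opposite strand by 42681 bases. Manf transcripts share 7.25% of their 31-base stretches with other genes, and at most 3.86% with any 1 gene, so part of its count is uncertain. Herpud1, which acts in ER-associated degradation, was at 45.0, 43.4 and 53.6 CPM with Baf45d siRNA, against 41.1, 44.2 and 49.4 CPM with NC siRNA, with the libraries numbered 3 highest.

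Many members were highest in the libraries numbered 3, whichever siRNA was given. This pattern was noticed in the values and is given without a test. The libraries numbered 3 of both groups were the 2 highest of 6 for 19 of 35 members, or 54.3%, against 17.1% of all genes tested. They were the 2 lowest for 0 members, against 15.4% of all genes tested. The 19 comprised 7 of 7 enzymes, 6 of 9 transcription factors and regulators, 3 of 5 transporters, 2 of 10 ER chaperones and 1 of 4 sensors. The count was 19 also with RLE scaling, with deposited FPKM and with scaling to the total count. Of the 8 members with the composite element 5 were among the 19, and of the 23 with a window but no such element 12 were. Of the 5 with the ER stress element 1 was, and of the 26 with a window but no such element 16 were. All 5 are ER chaperones or folding factors, so this count is not separate from that of their role.

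**Figure D4:**
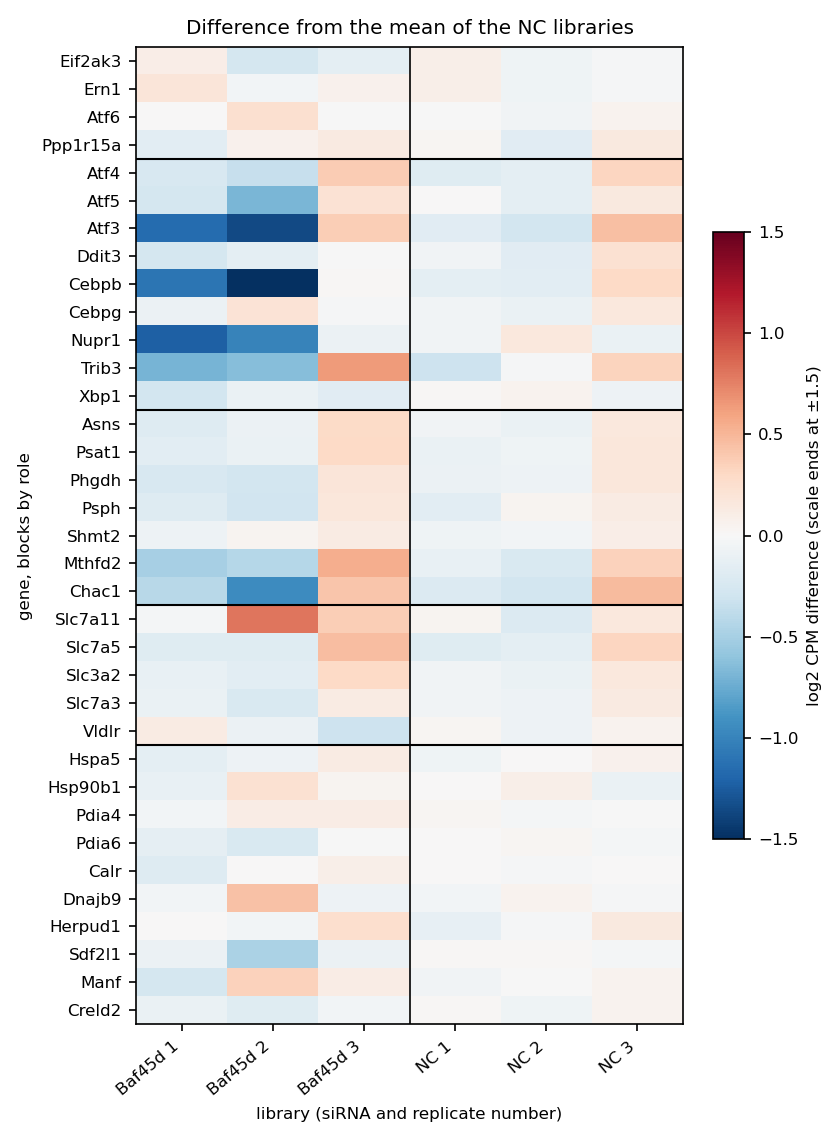
Difference in log2 CPM of each member from the mean of the NC libraries, Baf45d libraries at the left, genes in blocks by role from sensors at the top to ER chaperones at the bottom. All 7 enzymes are red under both replicates 3, and 6 of the 9 transcription factors and regulators are lowest in Baf45d replicates 1 and 2.

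Baf45d replicates 1 and 2 were the 2 lowest libraries for 15 members, or 42.9%, against 13.9% of all genes tested. This count ranks the same libraries as the count of 19 above and shares members with it, among them Atf3, Atf4, Cebpb and Trib3. The 2 counts are therefore not separate results. The count was 15 with RLE scaling, 17 with deposited FPKM and 20 with scaling to the total count, where 14.0%, 14.2% and 14.9% of all genes showed it. Averaged over the 9 transcription factors and regulators, log2 CPM differed from the NC mean by -0.59, -0.64 and 0.15 in Baf45d replicates 1 to 3, and by -0.10, -0.09 and 0.19 in NC replicates 1 to 3. Over the 7 enzymes the differences were -0.25, -0.30 and 0.29 in the Baf45d libraries and -0.11, -0.11 and 0.22 in the NC libraries. Over the 10 ER chaperones they were -0.11, 0.01 and 0.05 in the Baf45d libraries and -0.02, 0.01 and 0.01 in the NC libraries. In libraries of number 1, 30 of 35 members were lower with Baf45d siRNA (median difference -0.10). In those of number 2, 22 were lower (median -0.06), and in those of number 3, 14 were lower (median 0.03), where all genes tested were lower in 50.2%, 50.1% and 49.6%. The summed level of the neuron markers was highest in Baf45d replicates 1 and 2, at 1045 and 938 CPM, and lowest in Baf45d replicate 3, at 651 CPM, and their part in the pattern was not tested. The mitochondrial share was highest in Baf45d replicate 2, at 2.54%, but 1.52% in Baf45d replicate 1, where the transcription factors were also low, and its part was not tested.

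**Figure D5:**
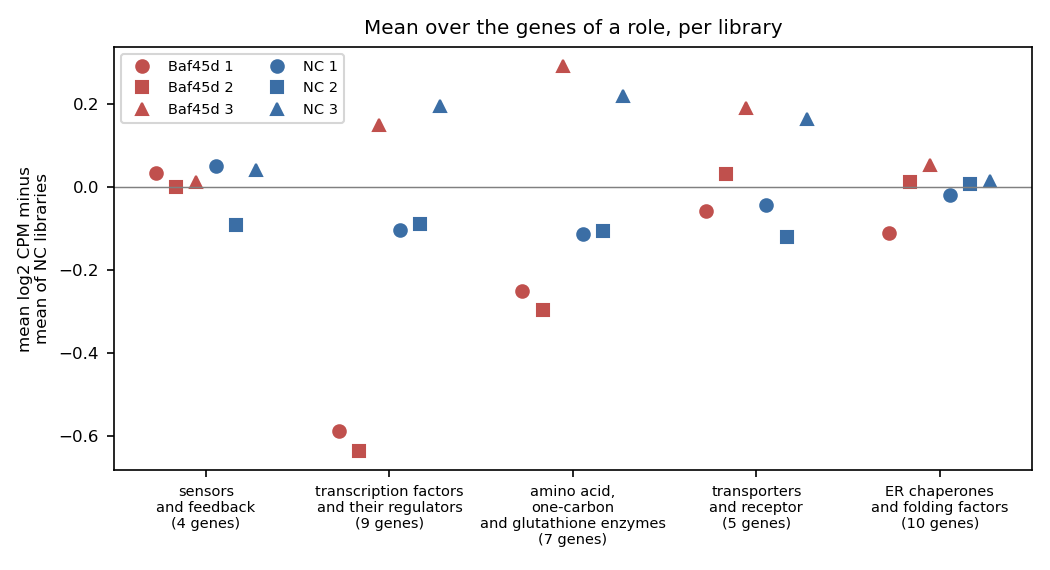
Mean over the members of each role of the log2 CPM difference from the NC mean, per library, Baf45d in red to the left of NC in blue, shapes giving the replicate number. The transcription factors of Baf45d replicates 1 and 2 lie at -0.59 and -0.64 and those of Baf45d replicate 3 at 0.15, while the ER chaperones lie between -0.11 and 0.05.

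The values of the stress factors depended on which Baf45d library was left out. Without Baf45d replicate 3, 10 members had an unadjusted p under 0.05 in edgeR, each lower with Baf45d siRNA, or 28.6% of the members against 13.3% of all genes in that fit. These were Atf3, Atf4, Atf5, Cebpb, Chac1, Mthfd2, Nupr1, Pdia6, Phgdh and Trib3. Cebpb alone passed, with a log2 fold change of -1.38 (SE 0.22) and an adjusted p of 0.0277 in edgeR, where 0.269% of 16366 genes passed. Atf3, with a log2 fold change of -1.32 (SE 0.27), and Nupr1, with -1.17 (SE 0.28), reached adjusted p of 0.0696 and 0.107 in edgeR. Without Baf45d replicate 1 the log2 fold changes were -0.60 for Cebpb, -0.28 for Atf3 and -0.49 for Nupr1, and 2 members, Slc7a11 and Manf, had an unadjusted p under 0.05, both higher with Baf45d siRNA, against 5.54% of all genes. Without Baf45d replicate 2 they were -0.44 for Cebpb, -0.23 for Atf3 and -0.57 for Nupr1. Without Baf45d replicate 3 the NC group still held its replicate 3, and the part of either library in these values was not tested. With both libraries numbered 3 left out, 0 members passed in edgeR. In that fit 8 members, or 22.9%, had an unadjusted p under 0.05, each lower with Baf45d siRNA, against 10.6% of all genes. These were Atf3, Atf5, Cebpb, Mthfd2, Nupr1, Pdia6, Trib3 and Xbp1, and Cebpb had a log2 fold change of -1.21.

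Other genes of the pathway were examined in 5 lists. No gene of the lists passed the edgeR test (adjusted p from 0.996 to 1.00). In the order given here, 0 of 14, 0 of 20, 1 of 27, 1 of 39 and 0 of 11 tested genes had an unadjusted p under 0.05, against 2.85% of all genes. The first list held eIF2, eIF2B, the other eIF2 kinases, the second phosphatase subunit, the GCN2 regulator Impact and the initiation factor Eif2a. All 14 of its genes had a log2 fold change above 0, against 51.9% of all genes. Their median was 0.09, against 0.01 over all genes, and their median SE was also 0.09. Their highest value was 0.13, and Eif2ak4, which encodes the amino acid sensor GCN2, was at 68.7, 71.3 and 64.0 CPM with Baf45d siRNA, against 63.7, 63.6 and 58.9 CPM with NC siRNA. Eif2s3x, which encodes the gamma subunit of eIF2, was at 167, 163 and 173 CPM with Baf45d siRNA, against 148, 161 and 160.2 CPM with NC siRNA. For these 2 genes every Baf45d library exceeded every NC library, against 3.74% of all genes. The libraries numbered 3 were the 2 highest for 4 of the 14, or 28.6%, against 17.1% of all genes.

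Of the 20 cytosolic aminoacyl-tRNA synthetases, 10 were above 0 and 10 below (median 0.0022). The libraries numbered 3 were the 2 highest for 16 of the 20, or 80.0%, against 17.1% of all genes. Farsb and Eprs, the synthetases for phenylalanine and for glutamate and proline, had the smallest p of the list. Eprs was at 294, 354 and 386 CPM with Baf45d siRNA, against 303, 311 and 331 CPM with NC siRNA. Farsb was at 55.8, 58.4 and 68.2 CPM with Baf45d siRNA, against 52.1, 55.2 and 56.8 CPM with NC siRNA.

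Of 27 other ATF4 targets, 18 had a log2 fold change below 0 (median -0.03), against 48.1% of all genes. The libraries numbered 3 were the 2 highest for 12, or 44.4%. Among the 12 were Nars, also counted with the synthetases, and Lonp1, also counted with the mitochondrial proteases, so the lists overlap. Slc1a5, a glutamine transporter, was at 16.3, 15.9 and 18.2 CPM with Baf45d siRNA, against 19.3, 19.8 and 21.7 CPM with NC siRNA, below in each Baf45d library, with a log2 fold change of -0.27 (SE 0.12) and an edgeR adjusted p of 0.996. Pck2, the mitochondrial phosphoenolpyruvate carboxykinase, was at 64.8, 54.8 and 58.0 CPM with Baf45d siRNA, against 69.7, 71.5 and 61.4 CPM with NC siRNA. Of 39 other ER folding, translocation and degradation genes, 27 were below 0 (median -0.03), against 48.1% of all genes. The libraries numbered 3 were the 2 highest for 18 of the 39, or 46.2%. Ssr4, a subunit of the translocon-associated complex, was at 38.2, 34.5 and 39.4 CPM with Baf45d siRNA, against 43.3, 43.6 and 42.9 CPM with NC siRNA. Creb3l2, a membrane-bound transcription factor, was at 63.1, 59.8 and 62.5 CPM with Baf45d siRNA, against 69.0, 72.2 and 67.2 CPM with NC siRNA. Both, among 3 of the 39, had Baf45d libraries below all NC libraries, against 4.3% of all genes, with log2 fold changes of -0.21 (SE 0.09) and -0.17 (SE 0.08). Of 11 mitochondrial chaperones and proteases, 7 were below 0 (median -0.0063), against 48.1% of all genes. The libraries numbered 3 were the 2 highest for 5 of the 11, or 45.5%. Oma1, the protease that relays mitochondrial stress to eIF2 kinases, was at 7.20, 7.72 and 8.11 CPM with Baf45d siRNA, against 9.85, 7.65 and 8.51 CPM with NC siRNA. Yme1l1, another inner-membrane protease, was at 140.4, 192 and 160.4 CPM with Baf45d siRNA, against 148, 163 and 139 CPM with NC siRNA.

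The authors' deposited table held all 35 members, with an adjusted p of 1.00 for each. Slc7a11 was the 1 member with a p under 0.05 in the authors' deposited table (log2 fold change 0.42, p = 0.0428), among 394 of the 27064 genes with a p. Of the authors' deposited tables of 217 KEGG and 599 Reactome terms, 1 and 6 terms held a member, in each case Slc7a11, and the smallest of their adjusted p was 0.159. The KEGG term for protein processing in the ER held 1 gene of the authors' list, Man1c1, with an adjusted p of 0.979 in the authors' deposited table.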

How the data were processed

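Total RNA of 6 P19 samples was sequenced, with 1 µg as input and an Illumina library kit, per the labels' protocols. The authors deposited 1 table of raw counts and FPKM values for each gene in each library, per the file headers, with group means of normalized counts (a signal). It also holds the authors' log2 fold changes and p-values, per the file headers. The authors deposited KEGG and Reactome term tables with p-values and 455 pairs of proteins with an interaction score, per the file headers, of which 1 (Ubb and Slc7a11, score 581) held a member. The submitters' processing notes name DESeq2 1.16.1 and mm9. For aligner, counter and strand the entry is: not given in the sources used here. Starts and ends of 98.3% of the genes found in GENCODE M21 were identical there, so coordinates are GRCm38.

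Counts were tested with edgeR 4.0.16 in R 4.3.3 (filterByExpr, TMM, robust quasi-likelihood F test, two-sided, group alone, Benjamini-Hochberg over 16078 genes, threshold 0.05). The SE is derived from the F statistic. Log2 CPM used a prior count of 2. The procedure was tested on simulated data. The simulated counts had no effect of replicate number, so that test does not cover the pairing described below. Nothing states separate cultures beyond the words biological replicates, so p-values measure the spread between these samples. Alternatives were RLE scaling, no filter, DESeq2 1.42.0, limma-voom (limma 3.58.1), a replicate block and omitted libraries. Across 16078 genes, deviations from the group mean had r = 0.27, 0.21 and 0.46 between same-numbered libraries. Between libraries of different number r ran from -0.35 to 0.15. Deviations within a group are tied by their shared mean, so these values of r are not independent. A pairing by number was inferred from these values, as the labels state none. The main fit of group alone leaves this pairing out, so its SEs and intervals include the spread between numbers. With the replicate block the SE was smaller for each member. It was 0.069 for Atf4 (0.20 in the main fit), 0.10 for Mthfd2 (0.29) and 0.077 for Slc7a5 (0.19). Libraries of a group differed beyond sampling noise (chi-square over degrees of freedom, 3.13 to 20.7). Members and lists were chosen with earlier results of these data known. Named genes are the 35 members, Dpf2, Gapdh and the 2 genes of smallest p per pathway list. Genes overlapping a member, cell type markers, genes shared by pathway lists and Man1c1 were named in addition. Figures were drawn with matplotlib 3.10.9.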

Additional observations from a re-analysis of the deposited data

How the results depend on the processing

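Members with a log2 fold change below 0 numbered 20 with RLE scaling, no filter, DESeq2, limma-voom and the replicate block, 23 without both libraries numbered 3, and 15 to 26 with 1 library left out. Members called numbered 0 in these fits and 0 to 1 with 1 library left out, the 1 being Cebpb without Baf45d replicate 3. Members at an unadjusted p under 0.05 numbered 1 in edgeR with TMM or RLE scaling and in DESeq2. They numbered 3 with no filter (Cebpb, Nupr1 and Slc7a11), 2 in limma-voom and 5 with the replicate block. The count was 8 without both libraries numbered 3, and 0 to 10 with 1 library left out. The share of all genes at that level changed as well. It was 2.85% with TMM, 2.86% with RLE scaling, 1.32% in DESeq2, 3.85% with no filter and 2.99% in limma-voom. With the replicate block it was 7.75%, without both libraries numbered 3 it was 10.6%, and with 1 library left out 1.19% to 13.3%. Genes called over the whole table numbered 0, but 10 with no filter, 1 with the replicate block, 20 without both libraries numbered 3, and 0 to 44 with 1 library left out. The replicate block changed no other call of a member. The cause of these changes was not tested.

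The sign of the log2 fold change turned in at least 1 alternative for 20 of 35 members and in none of those run for 15. With both libraries numbered 3 left out it was -0.055 for Asns, -0.034 for Psat1, -0.011 for Slc7a5, -0.054 for Slc3a2, 0.053 for Vldlr and -0.47 for Gapdh. With 1 library left out it ran from -0.31 to 0.13 for Atf4, -0.068 to 0.099 for Ppp1r15a, -0.050 to 0.12 for Cebpg, -0.70 to 0.12 for Trib3, -0.14 to 0.11 for Asns, -0.13 to 0.12 for Psat1, -0.25 to 0.0026 for Psph, -0.018 to 0.080 for Shmt2, -0.48 to 0.13 for Mthfd2 and -0.70 to 0.040 for Chac1. The transporters ran from -0.20 to 0.23 for Slc7a5, -0.14 to 0.11 for Slc3a2, -0.17 to 0.018 for Slc7a3 and -0.19 to 0.022 for Vldlr. The ER genes ran from -0.11 to 0.022 for Hspa5, -0.034 to 0.14 for Hsp90b1, -0.090 to 0.049 for Calr, -0.056 to 0.22 for Dnajb9, -0.022 to 0.15 for Herpud1 and -0.058 to 0.23 for Manf, and Gapdh from -0.49 to 2.29. Of the members whose sign held, Cebpb ran from -1.38 to -0.44, Atf3 from -1.32 to -0.23, Nupr1 from -1.17 to -0.49, Atf5 from -0.46 to -0.0036 and Slc7a11 from 0.19 to 0.60. Depth limits Nupr1 most, with 23, 26 and 55 reads in the Baf45d libraries and 55, 76 and 53 reads in the NC libraries. The scalings tried for the libraries numbered 3 were chosen after seeing the data.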
